A study of Rattus norvegicus with 15 samples.

Results

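The 40 genes described here act in ribosome biogenesis and the nucleolus, and were followed in cultured rat spermatogonial stem cells that lost and regained glial cell line-derived neurotrophic factor (GDNF). A gene was taken as measured where a probe set carried its symbol as the sole symbol in the platform annotation and reached a log2 intensity of at least 4 on 3 or more of the 15 arrays, and its brightest such probe set stood for it. By this rule 39 of the 40 listed genes were measured, of 9002 genes tested in all, and all of those with a probe set of their own passed the filter. Npm1, which encodes nucleophosmin, is not analysed here. The cells were rat spermatogonial stem cells kept for 1 month in medium without serum and with GDNF, the growth factor that sustains their self-renewal through the receptors GFRA1 and RET. In the order of the course, the 5 groups were control cultures with GDNF, cultures without GDNF for 18 h, and cultures without it for 18 h that then had GDNF back for 2, 4 or 8 h. Each group had 3 independent cultures, each on 1 single-colour Affymetrix array. No strain, age or genotype is given in the sources used here. A group kept without GDNF up to the times of return is not analysed here, so the time in culture and the return of GDNF cannot be told apart.

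Ribosome biogenesis begins in the nucleolus, where RNA polymerase I transcribes the precursor of the large ribosomal RNAs. Small nucleolar ribonucleoproteins (snoRNPs) of the box C/D and box H/ACA classes then modify the precursor, and successive sets of assembly factors cut, fold and export the small and the large subunit. In proliferating cells the genes of this pathway are classical targets of MYC and respond to growth factor signalling, and stem cells of the germline depend on it for growth and division. The members were arranged by role into 6 nucleolar chaperones and regulators, 3 subunits of RNA polymerase I, 4 box C/D and 4 box H/ACA snoRNP proteins, 12 factors of the small subunit and 11 of the large subunit.

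Promoter letters were read for the members because many of them are known as MYC targets, and MYC with its partner MAX binds the E-box CACGTG. In the RefSeq promoter windows of assembly GRCr8, each 250 bases before to 50 bases after a gene's start, 36 of the 40 members had an entry, and Gnl2, Bop1, Rrs1 and Wdr43 had none. The letters CACGTG, which read the same on both strands, were present in 14 of these 36 windows (38.9%). They were present in 28 of 114 windows of other ribosome biogenesis genes (24.6%) and in 1380 of 18999 windows of all protein-coding genes (7.26%). Median GC content was 55.8%, 56.7% and 55.3% in these sets. Among the 5443 protein-coding windows within the members' middle range of GC content (53.7% to 62.9%), 9.19% held the E-box. The members below carry the E-box upstream of the start, shown in capitals, and are printed on the strand of the gene, 5′ to 3′. Dkc1, Mybbp1a, Utp20 and Ddx18 differed in level among the 5 groups, and Pes1, Gnl3 and Utp4 did not pass that test, so the same letters are shown for both kinds of member. The first base of the E-box lies 184 bases before the start in Dkc1 (GRCr8, chrX:157751427-157751512, plus strand), 156 in Mybbp1a (chr10:57555262-57555347, plus strand), 127 in Utp20 (chr7:25102931-25103016, minus strand), 13 in Ddx18 (chr13:35295973-35296025, minus strand), 50 in Pes1 (chr14:83074256-83074341, plus strand), 25 in Gnl3 (chr16:6219783-6219847, minus strand) and 25 in Utp4 (chr19:51702176-51702240, plus strand).
Dkc1: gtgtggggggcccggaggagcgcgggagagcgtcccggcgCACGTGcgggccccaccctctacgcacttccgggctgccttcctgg
Mybbp1a: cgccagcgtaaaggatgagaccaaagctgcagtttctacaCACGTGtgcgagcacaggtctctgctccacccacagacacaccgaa
Utp20: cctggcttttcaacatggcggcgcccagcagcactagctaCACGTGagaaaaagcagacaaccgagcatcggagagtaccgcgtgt
Ddx18: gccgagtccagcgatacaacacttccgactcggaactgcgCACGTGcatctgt
Pes1: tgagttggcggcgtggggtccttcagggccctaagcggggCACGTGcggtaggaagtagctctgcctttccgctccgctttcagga
Gnl3: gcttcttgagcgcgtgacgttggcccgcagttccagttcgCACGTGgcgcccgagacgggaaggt
Utp4: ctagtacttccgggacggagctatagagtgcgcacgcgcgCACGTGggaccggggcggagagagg

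Mybbp1a was the single member with more than 1 E-box in its window. Of the measured members with a window, the E-box was present in 6 of 13 that differed among the groups and in 8 of 22 that did not pass that test, and the remaining window is that of Npm1. The letters CCGGAAG, a core bound by ETS factors, were found on either strand in 15 of 36 member windows (41.7%), 59 of 114 windows of other biogenesis genes (51.8%) and 2136 of 18999 protein-coding windows (11.2%). The TATA letters TATAAA, searched on both strands, were in 2 member windows (5.56%), 8 of the other biogenesis windows (7.02%) and 2490 of all (13.1%). The E-box and the ETS letters cannot share bases, while CCGGAAG and its reverse complement can. The following members without an E-box in their window differed among the groups, and their ETS letters on either strand are in capitals. They are Gar1 (GRCr8, chr2:221056753-221056839, minus strand), Polr1c (chr9:22233188-22233274, plus strand) and Nolc1 (chr1:254870178-254870264, plus strand), with the first base of CCGGAAG 50, 90 and 141 bases before the start. In Gar1 it overlaps the reverse complement CTTCCGG, whose first base lies 53 bases before the start.
Gar1: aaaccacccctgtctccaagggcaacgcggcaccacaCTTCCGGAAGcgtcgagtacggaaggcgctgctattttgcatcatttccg
Polr1c: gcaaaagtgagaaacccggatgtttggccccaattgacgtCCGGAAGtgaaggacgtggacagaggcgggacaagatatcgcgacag
Nolc1: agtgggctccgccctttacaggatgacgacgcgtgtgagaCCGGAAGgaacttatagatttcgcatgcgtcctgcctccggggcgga

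As deposited, after the submitters' processing, the 15 arrays had a median log2 intensity of 8.05 to 8.11 over the tested probe sets. Whether the arrays were alike in brightness before that processing was not tested. Of the markers of undifferentiated spermatogonia 8 were tested, with mean intensities by group of 5255 to 5539 for Uchl1 and 1932 to 4301 for Ret, while Gfra1, Lin28a, Thy1 and Nanos3 stayed under the low-value filter. After withdrawal 2 of these 8 were higher and 5 lower than in the control, among them Bcl6b, a GDNF-responsive gene, at 164 after withdrawal and 1588 in the control. Of 4 germ cell markers 2 were higher and 0 lower, and of 5 tested Sertoli cell markers 1 was higher and 2 lower. Mesenchymal markers were present, 10 of 16 tested, with a mean log2 level of 7.71 ± 0.14 at 2 h, 7.99 ± 0.28 at 4 h and 8.40 ± 0.14 at 8 h, against 8.26 ± 0.44 after withdrawal and 8.29 ± 0.24 in the control (SD, n = 3). As a measure of RNA integrity, the log2 level at the 3′ end of GAPDH minus that at its 5′ end was -0.27 at 2 h, -0.14 at 4 h and -0.16 at 8 h, against -0.12 after withdrawal and -0.20 in the control. The part of these measures in the changes at 2 h was not tested, apart from a fit with the marker mean as a covariate. Arrays differed within groups along the first component of that variation, with scores of -0.49, 0.08 and 0.41 after withdrawal, -0.32, 0.43 and -0.11 in the control and -0.39, 0.26 and 0.13 at 4 h for replicates 1 to 3. Counts are therefore also given without the 3 lowest arrays (replicate 1 of each of these groups), and without the array furthest from the others of its group (withdrawal replicate 1, control replicate 2 and 4 h replicate 1). Since these are bulk samples, fewer cells of a type and less RNA per cell cannot be told apart.

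Ribosome biogenesis members were bright and nearly level over the whole course. Their mean intensities ran from 161 for Polr1a to 14969 for Ncl, and the median of their mean log2 levels was 10.73, against 8.71 for all tested genes. The mean log2 level over the 39 members was 10.76 ± 0.04 after withdrawal and 10.71 ± 0.04 in the control, and 10.72 ± 0.01, 10.78 ± 0.03 and 10.75 ± 0.01 at 2, 4 and 8 h (SD, n = 3). For each member the highest of the 5 group means was set over the lowest, and this ratio had a median of 1.12 and ran from 1.04 for Nop16 to 1.49 for Rrs1. Only Rrs1, Gnl2, Ddx18 and Dkc1 reached a ratio of 1.25. By the limma F test over the 5 groups 15 of the 39 members differed at an adjusted p under 0.05 (38.5%), where 49.6% of all tested probe sets, 55.2% of all tested genes and 60% of probe sets with a mean log2 of at least 8 did so. Within groups, the median residual SD (log2) was 0.063 for the members, against 0.102 for all tested probe sets.

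The intervals bound how far the brightest probe sets of most members could have moved in the 6 comparisons made. These leave out 2 h and 4 h against control, and 4 h against 2 h and 8 h. The 95% interval of the fold change lay inside 1.5-fold in either direction for all 39 members in 5 of the 6 comparisons, and for 38 of 39 at 2 h against withdrawal, where Rrs1 was the exception. Between 34 and 36 of the 39 also lay inside 1.25-fold. By its dimmer probe set, Nop56 at 8 h against withdrawal had a 95% interval of 0.218 to 0.592 in log2, which passes 1.5-fold. For all tested genes 83.6% to 90.4% had intervals inside 1.5-fold, and for genes with a mean log2 of at least 8, 92.3% to 97.2%. A total of 17 members passed the threshold in no comparison, among them Ncl and Fbl, the brightest pair of members. Ncl, which encodes nucleolin, had 15544, 14698 and 13652 after withdrawal, against 14709, 14921 and 14765 in the control, and 15501, 14403 and 15476 at 2 h, with overlapping groups. Fbl, which encodes fibrillarin, the methyltransferase of box C/D snoRNPs, had 13283, 13502 and 11761 after withdrawal, against 13404, 12884 and 12896 in the control. The other 15 were Gnl3, Nop58, Rrp9, Nhp2, Rrp12, Heatr1, Bysl, Nob1, Imp4, Nop2, Nop16, Rrp1b, Wdr74, Bop1 and Pes1, whose largest fold in any comparison lay between 1.04 for Nop16 and 1.12 for Rrp12.

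**Figure D1:**
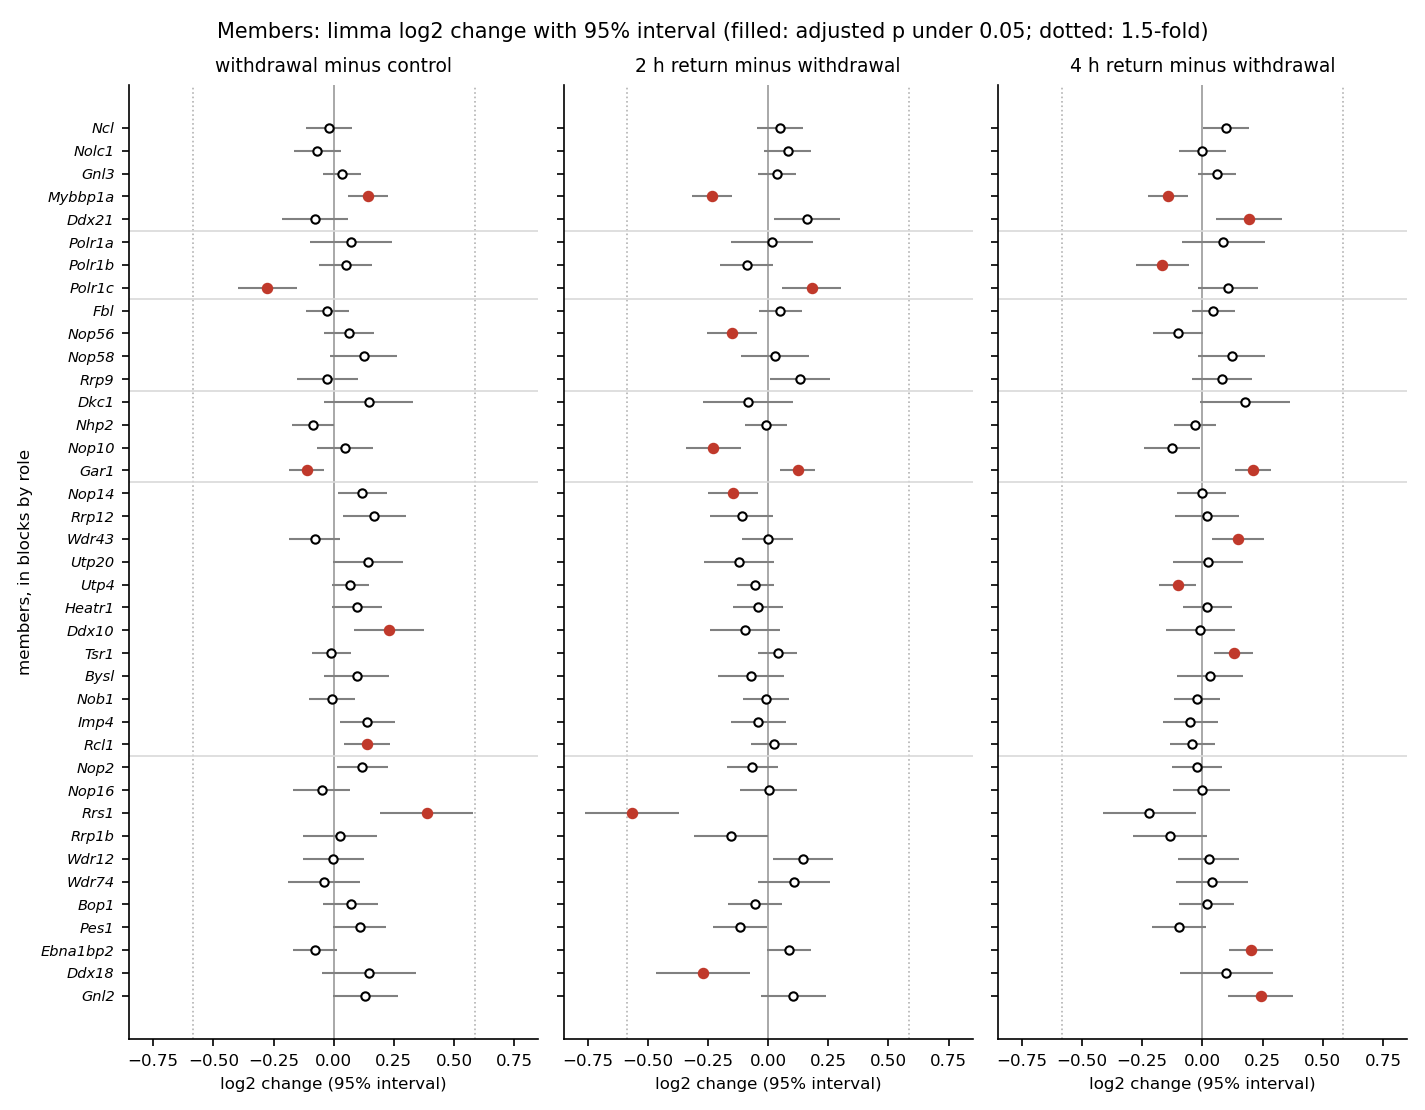
The log2 change of each of the 39 members with its 95% interval from limma, in blocks by role, for withdrawal minus control, 2 h minus withdrawal and 4 h minus withdrawal (x axes, log2). Filled points passed an adjusted p of 0.05, and the dotted lines mark 1.5-fold, which the interval of Rrs1 at 2 h crosses.

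Between withdrawal and control 4 members were higher and 2 were lower, where 11.4% and 9.67% of all tested probe sets were, 21.1% in all. Those higher were Rrs1, Ddx10, Mybbp1a and Rcl1, and those lower were Polr1c and Gar1. At 2 h of return against withdrawal 2 were higher and 6 lower, against 11.9% and 14.2% of probe sets (26.1% in all). At 4 h 6 were higher and 3 lower, against 14.6% and 16% (30.6%). At 8 h 3 were higher and 2 lower, against 9.62% and 15.4% (25%). For 8 h against control 4 were higher and 1 was lower (4.83% and 7.49%, 12.3% in all), and for 8 h against 2 h 7 were higher and 2 lower (11.8% and 14.4%, 26.2% in all). Median log2 changes of the members in the same order were 0.06, -0.01, 0.02, -0.01, 0.02 and -0.00, beside 0.02, -0.05, -0.03, -0.04, -0.02 and -0.01 over all tested genes. These comparisons share arrays and so are not independent of each other. Without the 3 lowest arrays on the within-group component the counts of members past the threshold were 3, 5, 7, 4, 4 and 8. Without the furthest array of the withdrawal, control and 4 h groups they were 2, 6, 7, 4, 4 and 9, and Rrs1, Mybbp1a, Ddx10 and Rcl1 were then no longer past the threshold after withdrawal, which left 0 members higher and Polr1c and Gar1 lower. With the mesenchymal marker mean as a covariate they were 7, 10, 10, 5, 8 and 8, with 0 higher and 10 lower at 2 h, where Gar1 and Polr1c lost their calls. The shares of all probe sets in these other fits were not set beside the counts, which are therefore not read as particular to the members. Of the 42 calls, 8 kept their direction and an adjusted p under 0.05 under all 14 alternative settings and all 15 omissions of 1 array.

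The members' shares were also read against bright probe sets and by separation of the arrays alone. Among the 8130 probe sets with a mean log2 of at least 8, the shares higher and lower were 14.6% and 12.2% after withdrawal, 14.8% and 17.4% at 2 h, 18.7% and 19.3% at 4 h, 11.3% and 19.3% at 8 h against withdrawal, 5.24% and 9.46% at 8 h against control, and 13.2% and 17.7% at 8 h against 2 h. Groups lay fully apart for 7 members higher and 4 lower after withdrawal against control, where this held for 18.7% and 15.5% of all tested probe sets. At 2 h against withdrawal it held for 4 and 9 members, against 19.7% and 23% of probe sets. At 4 h it held for 5 and 5 (20.1% and 21.2%), and at 8 h for 4 and 7 (16.7% and 24.2%). For 8 h against control it held for 10 and 4 (12.6% and 17.5%), and for 8 h against 2 h for 12 and 6 (20.2% and 25.4%). The members' shares stood near or below the background in most comparisons, and above it for members higher at 8 h than in the control or than at 2 h. That difference in shares was not tested.

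Among the nucleolar regulators, Mybbp1a changed in 5 of the 6 comparisons. Mybbp1a encodes a nucleolar protein that takes part in rRNA processing and restrains RNA polymerase I in mammalian cells, and that also binds p53. Its intensities were 1641, 1547 and 1628 in the control, 1758, 1819 and 1736 after withdrawal, 1517, 1487 and 1516 at 2 h, 1642, 1537 and 1636 at 4 h, and 1728, 1805 and 1750 at 8 h. All withdrawal arrays lay above all control and all 2 h arrays, and all 8 h arrays lay above the control and the 2 h arrays as well. It was 1.10-fold higher after withdrawal than in the control (log2 0.14 ± 0.04, SE, adjusted p = 0.0178), and 1.18-fold lower at 2 h (-0.23 ± 0.04, adjusted p = 0.000668) and 1.10-fold lower at 4 h (-0.14, adjusted p = 0.0125) than after withdrawal. At 8 h it did not differ from withdrawal past the threshold (-0.01, adjusted p = 0.913) and was 1.17-fold above 2 h (0.22 ± 0.04, adjusted p = 0.000737). Without the furthest array of the withdrawal, control and 4 h groups Mybbp1a gave 0.12 after withdrawal (adjusted p = 0.106). The change at 2 h and that between 8 h and 2 h held under every setting tried.

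Nolc1 passed the threshold in 2 comparisons and Ddx21 in 1, none of them by a dimmer probe set. Nolc1, which encodes a chaperone of snoRNPs, had 1740, 1748 and 1830 in the control, 1765, 1702 and 1609 after withdrawal, 1839, 1762 and 1767 at 2 h, 1761, 1643 and 1666 at 4 h, and 1646, 1555 and 1515 at 8 h. Its 8 h arrays all lay below the control and the 2 h arrays, 1.13-fold below the control (log2 -0.17 ± 0.05, adjusted p = 0.0218) and 1.14-fold below 2 h (-0.19 ± 0.05, adjusted p = 0.00744). Both dimmer probe sets of Nolc1, at mean intensities of 270 and 276, showed no call in either comparison (log2 -0.03 and -0.10 against control, adjusted p = 0.849 and 0.484). Ddx21, an RNA helicase of rRNA transcription and processing, had 3305, 3124 and 3122 in the control, 3231, 3125 and 2719 after withdrawal, 3474, 3145 and 3506 at 2 h, 3494, 3677 and 3207 at 4 h, and 3207, 3073 and 3234 at 8 h. It was 1.14-fold higher at 4 h than after withdrawal although 1 array of each group overlapped (0.20 ± 0.06, adjusted p = 0.0321), and its dimmer probe set gave 0.05 there (adjusted p = 0.671). Gnl3, which encodes nucleostemin, a nucleolar GTPase of stem cells, was at most 1.04-fold apart in any comparison.

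The genes of the 3 subunits of RNA polymerase I each took a different course. Polr1c, a subunit shared with RNA polymerase III, had 1527, 1612 and 1514 in the control, 1315, 1170 and 1365 after withdrawal, 1471, 1426 and 1456 at 2 h, 1421, 1428 and 1287 at 4 h, and 1500, 1511 and 1399 at 8 h. Every withdrawal array lay below every control, 2 h and 8 h array. It was 1.21-fold lower after withdrawal than in the control (log2 -0.28 ± 0.06, adjusted p = 0.00342), a call that held under every setting, and 1.13-fold higher at 2 h (0.18, adjusted p = 0.033) and 1.15-fold higher at 8 h (0.20, adjusted p = 0.0211) than after withdrawal. At 4 h its change was 0.10 (adjusted p = 0.191), and the call at 2 h was lost with the mesenchymal covariate. Polr1a, the largest subunit, had 145, 158 and 141 in the control, 169, 151 and 146 after withdrawal, 153, 159 and 159 at 2 h, 169, 159 and 167 at 4 h, and 181, 198 and 167 at 8 h. Its 8 h arrays all lay above all control arrays (1.23-fold higher, 0.30 ± 0.08, adjusted p = 0.0257), while against withdrawal its change was 0.22 (adjusted p = 0.0539). Polr1b, the second catalytic subunit, had 1514, 1378 and 1462 in the control, 1512, 1495 and 1494 after withdrawal, 1484, 1343 and 1406 at 2 h, 1283, 1383 and 1345 at 4 h, and 1457, 1448 and 1316 at 8 h. Its 4 h arrays lay below all withdrawal arrays (1.12-fold lower, -0.17 ± 0.05, adjusted p = 0.0244).

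Transcripts for proteins of the box C/D snoRNPs, particles many of which guide ribose methylation, changed little. Nop56, a core protein of these particles, had 3842, 3435 and 3654 in the control, 3942, 3872 and 3614 after withdrawal, 3568, 3385 and 3333 at 2 h, 3739, 3401 and 3498 at 4 h, and 3906, 3853 and 3772 at 8 h. Its 2 h arrays lay below all withdrawal and all 8 h arrays, 1.11-fold below withdrawal (log2 -0.15 ± 0.05, adjusted p = 0.0326), and 8 h was 1.12-fold above 2 h (0.17 ± 0.05, adjusted p = 0.0209). The 2 probe sets of Nop56 disagreed. The dimmer one, at a mean intensity of 442, gave 0.17 at 2 h (adjusted p = 0.175) and was 1.32-fold higher at 8 h than after withdrawal (0.41 ± 0.09, adjusted p = 0.00343), where the brighter one gave 0.01. Nop58, the partner of Nop56, had 6492, 6590 and 8057 in the control, 7497, 7701 and 7722 after withdrawal, 7904, 7759 and 7722 at 2 h, 8575, 7677 and 8718 at 4 h, and 7944, 7734 and 7571 at 8 h. Control replicate 3 alone reached the level of the other groups, and no comparison passed the threshold. Rrp9, a protein of the U3 particle, had 416, 397 and 393 in the control, 393, 365 and 429 after withdrawal, 445, 436 and 417 at 2 h, 422, 416 and 416 at 4 h, and 416, 410 and 432 at 8 h. Its withdrawal arrays spanned the control range, and no comparison passed for it.

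The box H/ACA snoRNP carries out pseudouridylation and also forms part of telomerase. Of the 4 genes for its proteins 3 differed among the groups in transcript level, in different directions. Gar1 had 3637, 3418 and 3638 in the control, 3381, 3210 and 3292 after withdrawal, 3532, 3686 and 3544 at 2 h, 3775, 3776 and 3878 at 4 h, and 3536, 3527 and 3536 at 8 h. Its withdrawal arrays were the 3 lowest of the 15 and its 4 h arrays the 3 highest. It was 1.08-fold lower after withdrawal than in the control (log2 -0.11 ± 0.03, adjusted p = 0.0285), then 1.09-fold higher at 2 h (0.12, adjusted p = 0.0164), 1.16-fold higher at 4 h (0.21 ± 0.03, adjusted p = 0.000309) and 1.07-fold higher at 8 h (0.10, adjusted p = 0.0423) than after withdrawal. The call at 4 h held under every setting, and that at 2 h was lost with the mesenchymal marker mean as a covariate. Dkc1, which encodes the pseudouridine synthase dyskerin, had 1930, 1664 and 1946 in the control, 2055, 2211 and 1861 after withdrawal, 1741, 1927 and 2121 at 2 h, 2516, 2105 and 2303 at 4 h, and 2414, 2178 and 2398 at 8 h. Its 8 h arrays lay above all control and all 2 h arrays, 1.26-fold above the control (0.34 ± 0.09, adjusted p = 0.0197) and 1.21-fold above 2 h (0.27 ± 0.09, adjusted p = 0.03). Nop10, a small core protein, had 4247, 3980 and 4737 in the control, 4351, 4402 and 4616 after withdrawal, 3723, 3882 and 3815 at 2 h, 4196, 3834 and 4215 at 4 h, and 4393, 4227 and 4250 at 8 h. Its 2 h arrays lay below all withdrawal arrays, 1.17-fold lower (-0.23 ± 0.05, adjusted p = 0.00698, past the threshold under every setting), and 8 h was 1.13-fold above 2 h (0.17, adjusted p = 0.0293). Nhp2, the remaining core protein, passed in no comparison.

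**Figure D2:**
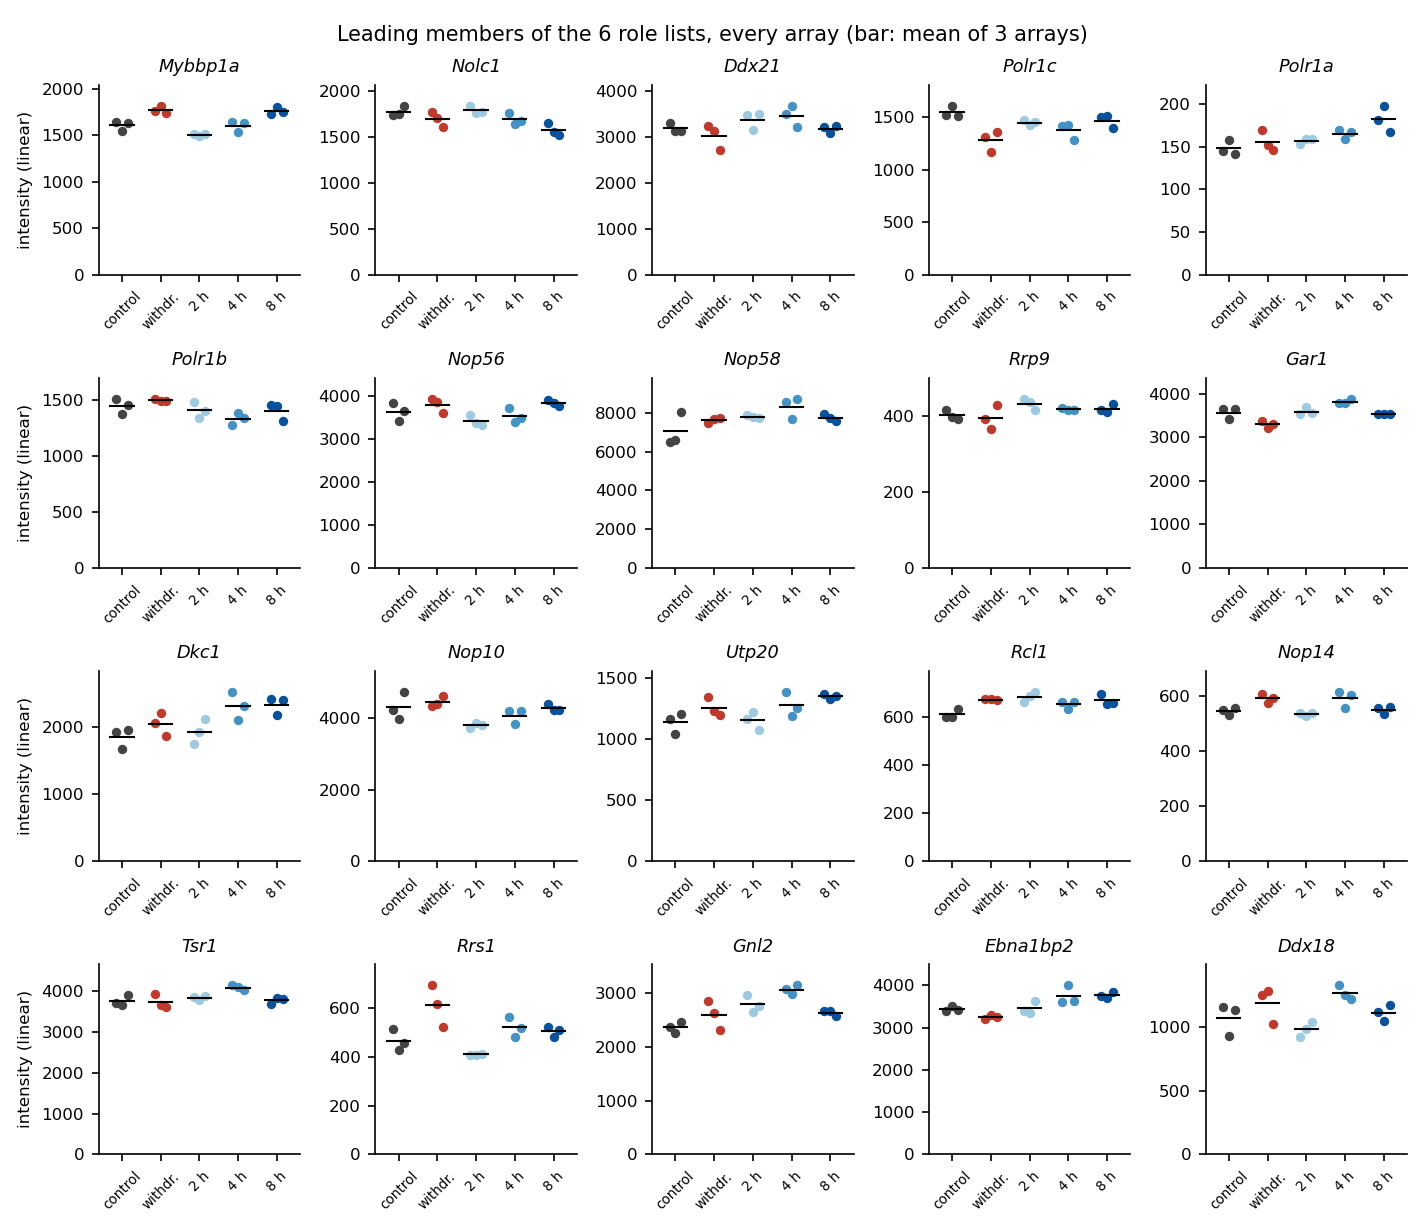
Linear intensity (y axes, from 0) of the leading members of each role list on every array, by group in the order of the course, with a bar at the mean of 3 arrays. Rrs1 shows the widest course, with 407 to 413 at 2 h and 522 to 692 after withdrawal, and most other panels are close to level.

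Of the 12 small subunit factors 3 differed among the groups. Utp20, a component of the small subunit processome, had 1166, 1046 and 1207 in the control, 1345, 1232 and 1196 after withdrawal, 1170, 1225 and 1073 at 2 h, 1387, 1192 and 1256 at 4 h, and 1368, 1332 and 1359 at 8 h. Its 8 h arrays lay above all control and 2 h arrays, 1.19-fold above the control (log2 0.25 ± 0.07, adjusted p = 0.0272) and 1.17-fold above 2 h (0.23 ± 0.07, adjusted p = 0.0231). Rcl1, needed in yeast for early cuts of the rRNA precursor, had 602, 600 and 633 in the control, 675, 674 and 672 after withdrawal, 664, 688 and 704 at 2 h, 664, 636 and 664 at 4 h, and 696, 655 and 657 at 8 h. The control arrays were the 3 lowest of the 15, and withdrawal was 1.10-fold higher (0.14 ± 0.04, adjusted p = 0.0378). Nop14, another processome protein, had 549, 532 and 558 in the control, 608, 577 and 595 after withdrawal, 539, 529 and 540 at 2 h, 615, 558 and 604 at 4 h, and 558, 536 and 560 at 8 h. The 2 h arrays lay below all withdrawal arrays (1.11-fold, -0.15 ± 0.05, adjusted p = 0.0368). Tsr1, which acts in late maturation of the small subunit, had 3708, 3655 and 3908 in the control, 3932, 3654 and 3603 after withdrawal, 3858, 3764 and 3878 at 2 h, 4133, 4087 and 4015 at 4 h, and 3679, 3826 and 3805 at 8 h. Its 4 h arrays were the 3 highest of the 15 and 1.09-fold above withdrawal (0.13 ± 0.04, adjusted p = 0.0179).

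The other small subunit factors past the threshold were Ddx10, Wdr43 and Utp4. The helicase gene Ddx10 was 1.17-fold higher after withdrawal than in the control (log2 0.23 ± 0.07, adjusted p = 0.0262). The processome gene Wdr43 was 1.11-fold higher at 4 h than after withdrawal (0.15, adjusted p = 0.036), and its second probe set was higher as well (0.16, adjusted p = 0.0119). Utp4, of the same processome, was 1.07-fold lower at 4 h (-0.10, adjusted p = 0.0419) and 1.08-fold lower at 8 h (-0.11, adjusted p = 0.0397) than after withdrawal. Rrp12, Heatr1, Bysl, Nob1 and Imp4 passed in no comparison by their brightest probe sets, with log2 changes between -0.15 and 0.17. A dimmer probe set of Imp4, at a mean of 135, was 1.27-fold lower at 8 h than at 2 h (-0.34 ± 0.09, adjusted p = 0.0106).

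Large subunit factors held the largest change of all members. Rrs1, which in yeast helps to bring the 5S ribonucleoprotein into the growing large subunit, had 513, 427 and 454 in the control, 692, 615 and 522 after withdrawal, 407, 408 and 413 at 2 h, 561, 482 and 519 at 4 h, and 521, 482 and 510 at 8 h. All withdrawal arrays lay above all control arrays, and the 2 h arrays were the 3 lowest of the 15. It was 1.31-fold higher after withdrawal than in the control (log2 0.39 ± 0.09, adjusted p = 0.0072), and 1.48-fold lower at 2 h than after withdrawal (-0.57 ± 0.09, adjusted p = 0.000477). Without the furthest array of the withdrawal, control and 4 h groups Rrs1 gave 0.23 after withdrawal (adjusted p = 0.0923). The call at 2 h held under every setting, with an adjusted p of at most 0.00722. At 4 h the change against withdrawal was -0.22 (adjusted p = 0.0796) and at 8 h -0.26 ± 0.09 (adjusted p = 0.045). This call at 8 h was lost under 7 of 14 alternative settings and 10 of 15 omissions of 1 array. The 8 h level was 1.23-fold above 2 h (0.30 ± 0.09, adjusted p = 0.0244). Rrs1 had no other tested probe set.

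Gnl2 was higher at 4 h of GDNF return, and Ebna1bp2 at 4 h and 8 h. Gnl2, a GTPase of large subunit export, had 2370, 2247 and 2463 in the control, 2847, 2621 and 2310 after withdrawal, 2951, 2640 and 2748 at 2 h, 3060, 2977 and 3134 at 4 h, and 2660, 2662 and 2566 at 8 h. Its 4 h arrays were the 3 highest of the 15, 1.18-fold above withdrawal (log2 0.24 ± 0.06, adjusted p = 0.00909). Ebna1bp2, a nucleolar assembly factor, had 3384, 3513 and 3406 in the control, 3214, 3293 and 3248 after withdrawal, 3391, 3353 and 3623 at 2 h, 3601, 3998 and 3625 at 4 h, and 3757, 3689 and 3834 at 8 h. Its withdrawal arrays were the 3 lowest of the 15. It was 1.15-fold higher at 4 h (0.20 ± 0.04, adjusted p = 0.00233) and 1.16-fold higher at 8 h (0.21 ± 0.04, adjusted p = 0.0022) than after withdrawal, both under every setting, and 1.09-fold higher at 8 h than at 2 h (0.12, adjusted p = 0.0451).

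Ddx18, an RNA helicase, and Wdr12 were the other large subunit factors past the threshold. Ddx18 had 1154, 923 and 1131 in the control, 1250, 1276 and 1023 after withdrawal, 916, 981 and 1037 at 2 h, 1322, 1245 and 1218 at 4 h, and 1117, 1042 and 1166 at 8 h. It was 1.21-fold lower at 2 h than after withdrawal with groups that overlapped (log2 -0.27 ± 0.09, adjusted p = 0.0408), where its dimmer probe set gave -0.10 (adjusted p = 0.206). That second probe set was higher at 4 h than after withdrawal (0.22, adjusted p = 0.0102) and at 8 h than at 2 h (0.24, adjusted p = 0.00619). Wdr12, which forms a complex with Pes1 and Bop1, had 887, 998 and 968 in the control, 935, 906 and 1009 after withdrawal, 1039, 1089 and 1022 at 2 h, 934, 971 and 994 at 4 h, and 991, 876 and 917 at 8 h. Its 8 h arrays lay below its 2 h arrays (1.13-fold, -0.18 ± 0.06, adjusted p = 0.0351), while its partners Pes1 and Bop1 gave 0.00 and 0.04 there (adjusted p = 0.972 and 0.629). For Rrp1b the brightest probe set, at a mean of 1974, passed in no comparison, and a dimmer one at 534 was higher after withdrawal than in the control (0.22, adjusted p = 0.0167) and lower at 2 h (-0.21, adjusted p = 0.0166) and at 8 h (-0.21, adjusted p = 0.019) than after withdrawal.

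No group held the peak of most members. The highest group mean was that of the control for 4 members, withdrawal for 11, 2 h for 6, 4 h for 11 and 8 h for 7. The lowest was that of the control for 13 members, withdrawal for 7, 2 h for 9, 4 h for 2 and 8 h for 8. Members that were lower after withdrawal and higher at 2 h of return (Polr1c, Gar1) stood beside members higher after withdrawal and lower at 2 h (Rrs1, Mybbp1a). At 8 h Mybbp1a had a mean of 1761, against 1771 after withdrawal. Among the calls of these genes after withdrawal, only that of Polr1c held under every setting.

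Beyond the 40 listed genes, 130 other genes of ribosome biogenesis were followed, of which 121 were tested and 59 (48.8%) differed among the groups. After withdrawal 9 were higher than in the control and 11 lower. At 2 h of return 21 were higher and 4 lower than after withdrawal, at 4 h 29 and 8, and at 8 h 13 and 18. For 8 h against control the counts were 2 and 7, and for 8 h against 2 h 6 and 23. In the order of these 6 comparisons the shares higher were 7.44%, 17.4%, 24%, 10.7%, 1.65% and 4.96%, beside 13.8%, 10.9%, 14.7%, 10.1%, 4.88% and 13% of all tested genes. The shares lower were 9.09%, 3.31%, 6.61%, 14.9%, 5.79% and 19%, beside 10.8%, 17.2%, 20.6%, 19.3%, 9.22% and 15.4%. The difference between lists was not tested. Their median log2 changes were -0.00, 0.03, 0.01, -0.02, 0.00 and -0.02 in the same order.

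Utp18 and Utp15, subunits of the small subunit processome, had the largest of these changes at 2 h. Utp18 had 1355, 1414 and 1241 in the control, 1134, 1093 and 1062 after withdrawal, 1673, 1560 and 1802 at 2 h, 1428, 1581 and 1440 at 4 h, and 1181, 1112 and 1203 at 8 h. Its withdrawal arrays lay below all control and all 2 h and 4 h arrays. It was 1.22-fold lower after withdrawal than in the control (log2 -0.28, adjusted p = 0.00438), 1.53-fold higher at 2 h (0.61 ± 0.06, adjusted p = 8.43e-06) and 1.35-fold higher at 4 h (0.43, adjusted p = 9.73e-05) than after withdrawal, and 1.44-fold lower at 8 h than at 2 h (-0.52, adjusted p = 2.78e-05). Utp15 had 479, 509 and 397 in the control, 411, 383 and 373 after withdrawal, 644, 583 and 614 at 2 h, 468, 556 and 495 at 4 h, and 472, 455 and 452 at 8 h, and was 1.58-fold higher at 2 h than after withdrawal (0.66 ± 0.08, adjusted p = 7.44e-05). All 2 h arrays of Utp15 lay above every other array, while for Utp18 1 array at 4 h overlapped them. Rrn3, the factor TIF-IA that recruits RNA polymerase I, had 601, 603 and 605 at 2 h, against 536, 483 and 454 after withdrawal (1.23-fold, 0.30, adjusted p = 0.00172), and was lower again at 8 h than at 2 h (-0.27, adjusted p = 0.0028).

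**Figure D3:**
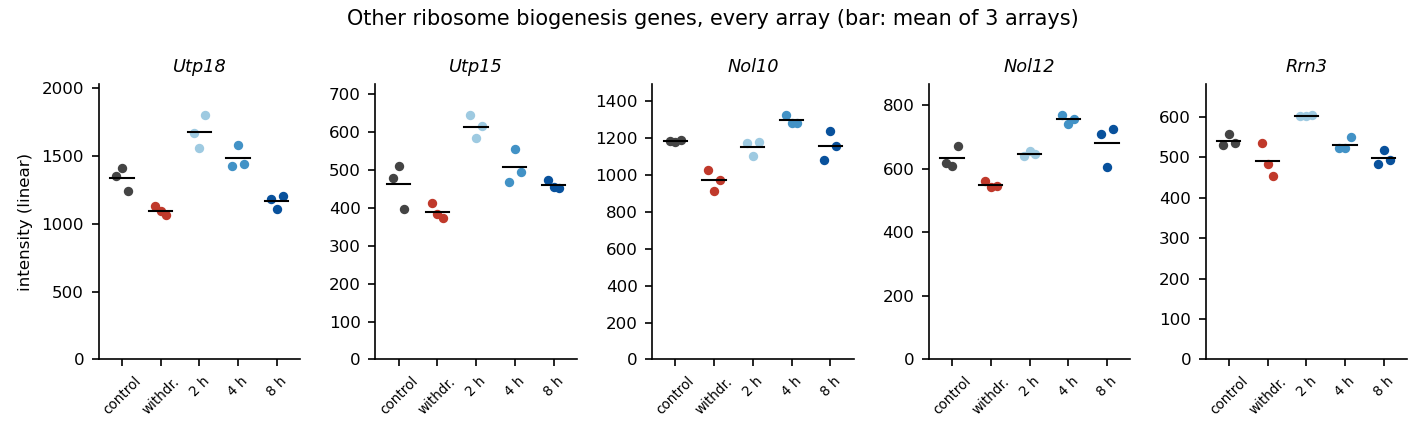
Linear intensity (y axes, from 0) of 5 other ribosome biogenesis genes on every array, by group in the order of the course, with a bar at the mean of 3 arrays. Utp18, Utp15 and Rrn3 peak at 2 h, and Nol10 and Nol12 peak at 4 h.

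Nol10 and Nol12 peaked at 4 h. Nol10, a nucleolar protein of small subunit assembly, had 1028, 916 and 971 after withdrawal, against 1183, 1178 and 1192 in the control (1.22-fold lower, log2 -0.29, adjusted p = 0.00145). At 4 h it had 1326, 1283 and 1284 and was 1.34-fold higher than after withdrawal (0.42 ± 0.05, adjusted p = 3.56e-05). Nol12, an RNA-binding nucleolar protein, was 1.38-fold higher at 4 h (0.46, adjusted p = 5.25e-05) and 1.23-fold higher at 8 h (0.30, adjusted p = 0.00217). Nufip1, which helps to assemble box C/D snoRNPs, was higher at 2 h (0.29, adjusted p = 9.7e-05) and 4 h (0.26, adjusted p = 0.000151) than after withdrawal. At 8 h the other leading rises against withdrawal were Bccip (0.28, adjusted p = 0.00113), Gnl3l (0.38, adjusted p = 0.00217) and Nol10 (0.25, adjusted p = 0.00288). Gnl3l, a relative of nucleostemin, was also higher at 8 h than at 2 h by 0.38.

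Members of the same list moved in the opposite direction too. After withdrawal Dcaf13 (log2 0.15, adjusted p = 0.00522), Rrp1 (0.21, adjusted p = 0.00964), Aatf (0.15, adjusted p = 0.0107) and Nsun5 (0.17, adjusted p = 0.0126) were higher than in the control, while Nip7 (-0.23, adjusted p = 0.00264) and Exosc3 (-0.33, adjusted p = 0.00429) were lower. Nip7 acts in large subunit assembly, Exosc3 belongs to the RNA exosome, and Nsun5 methylates the large rRNA. Dcaf13 (-0.14, adjusted p = 0.00687), Shq1 (-0.31, adjusted p = 0.00723), Senp3 (-0.17, adjusted p = 0.0138) and Pelp1 (-0.23, adjusted p = 0.0386) were lower at 2 h than after withdrawal. Nsun5 (-0.20, adjusted p = 0.00344), Exosc7 (-0.19, adjusted p = 0.00345), Bms1 (-0.17, adjusted p = 0.00554) and Rrp1 (-0.20, adjusted p = 0.00967) were lower at 4 h. At 8 h Nsun5 (-0.29, adjusted p = 0.000277), Polr1f (-0.27, adjusted p = 0.00392), Dcaf13 (-0.15, adjusted p = 0.00526) and Rrp1 (-0.21, adjusted p = 0.00845) were lower than after withdrawal. Against the control at 8 h Ruvbl1 (0.20, adjusted p = 0.00256) and Nkrf (0.23, adjusted p = 0.0276) were higher, and Exosc7 (-0.32, adjusted p = 0.000185) led those lower. Nsun5 (-0.30), Nufip1 (-0.23) and Exosc9 (-0.34) were lower at 8 h than at 2 h.

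**Figure D4:**
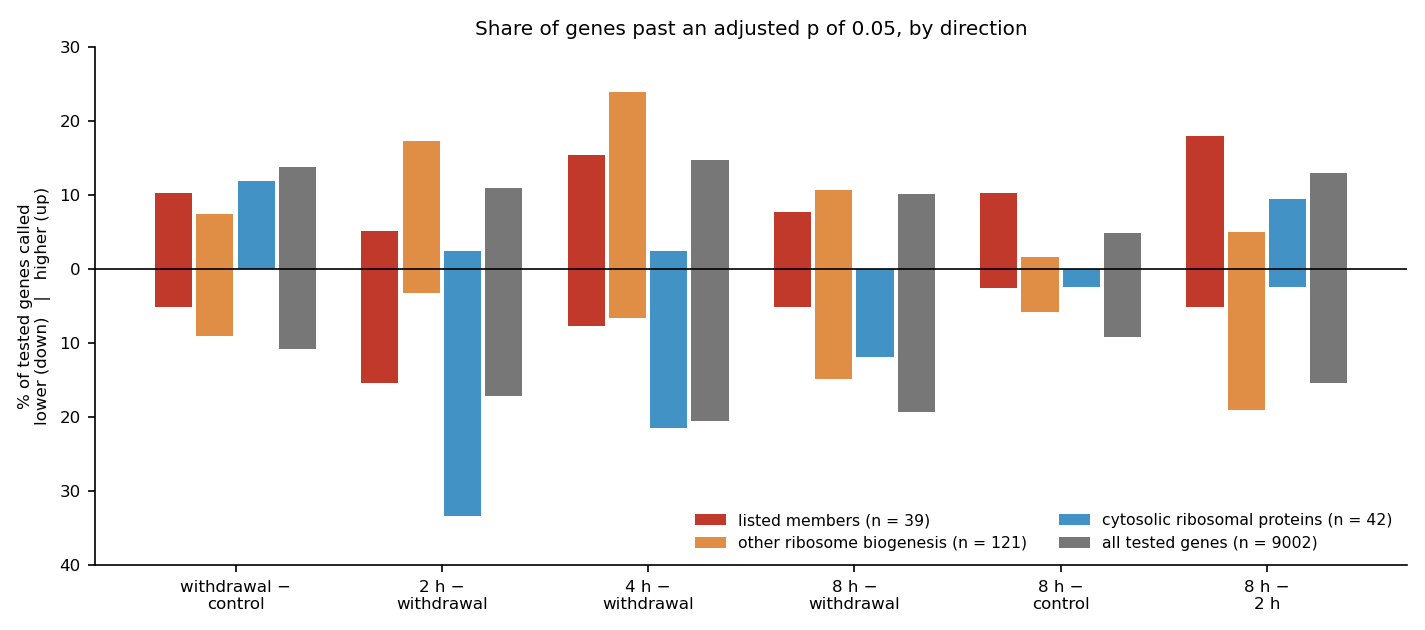
Percent of tested genes past an adjusted p of 0.05 (y axis, higher drawn up and lower drawn down) in the 6 comparisons, for the 39 members, 121 other ribosome biogenesis genes, 42 cytosolic ribosomal protein genes and all 9002 tested genes. The members lie below all genes in each downward bar, other biogenesis genes are higher at 2 h and 4 h in 17.4% and 24%, and ribosomal protein genes are lower at 2 h in 33.3%.

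The 42 cytosolic ribosomal protein genes, which encode the parts the pathway assembles, gave 5 higher and 0 lower calls after withdrawal against control. These shares were 11.9% and 0%, beside 13.8% and 10.8% of all tested genes. At 2 h 1 was higher and 14 were lower than after withdrawal, at 4 h 1 and 9, and at 8 h 0 and 5, with medians of -0.07, -0.07 and -0.06 on the log2 scale. For all genes these medians were -0.05, -0.03 and -0.04. The shares of ribosomal protein genes that were lower were 33.3%, 21.4% and 11.9% at 2, 4 and 8 h, beside 17.2%, 20.6% and 19.3% of all tested genes, so that the share stood above that of all genes at 2 h, near it at 4 h and below it at 8 h.

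MYC network genes, whose proteins bind the E-box with MAX or oppose MYC there, gave calls for Max and for MAX partners that oppose MYC. Mycn had 915, 813 and 838 after withdrawal, against 897, 855 and 836 in the control, and 834, 835 and 813 at 2 h, and passed in no comparison. Myc and Mycl stayed under the low-value filter, as did Mxd3. Mxi1, a MAX partner that represses, had 624, 561 and 572 after withdrawal, against 459, 386 and 441 in the control (1.37-fold higher, log2 0.45 ± 0.09, adjusted p = 0.00295). On return it had 385, 386 and 318 at 2 h, 382, 304 and 351 at 4 h, and 412, 414 and 412 at 8 h, each group below all withdrawal arrays (1.62-fold, 1.70-fold and 1.42-fold lower, adjusted p = 0.000103, 2.18e-05 and 0.00111). Mxd4, of the same repressor family, followed the same course at a low level, with 44.5, 43.6 and 37.5 after withdrawal, against 28.7, 26.0 and 29.7 in the control (0.57, adjusted p = 0.00509), and was lower at 2, 4 and 8 h than after withdrawal (-0.39, -0.83 and -0.75, adjusted p = 0.0358, 0.000178 and 0.00061). Max itself had 904, 881 and 833 at 2 h, against 993, 1074 and 1053 after withdrawal (1.19-fold lower, -0.25, adjusted p = 0.0031), and was higher at 8 h than at 2 h (0.30, adjusted p = 0.000916). Mnt, another MAX partner, was higher at 2 h than after withdrawal (0.16, adjusted p = 0.0496, groups overlapping) and lower at 8 h than in the control (-0.29, adjusted p = 0.00438) and than at 2 h (-0.30, adjusted p = 0.00163). Mxd1, Mlx and Mga passed in no comparison.

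**Figure D5:**
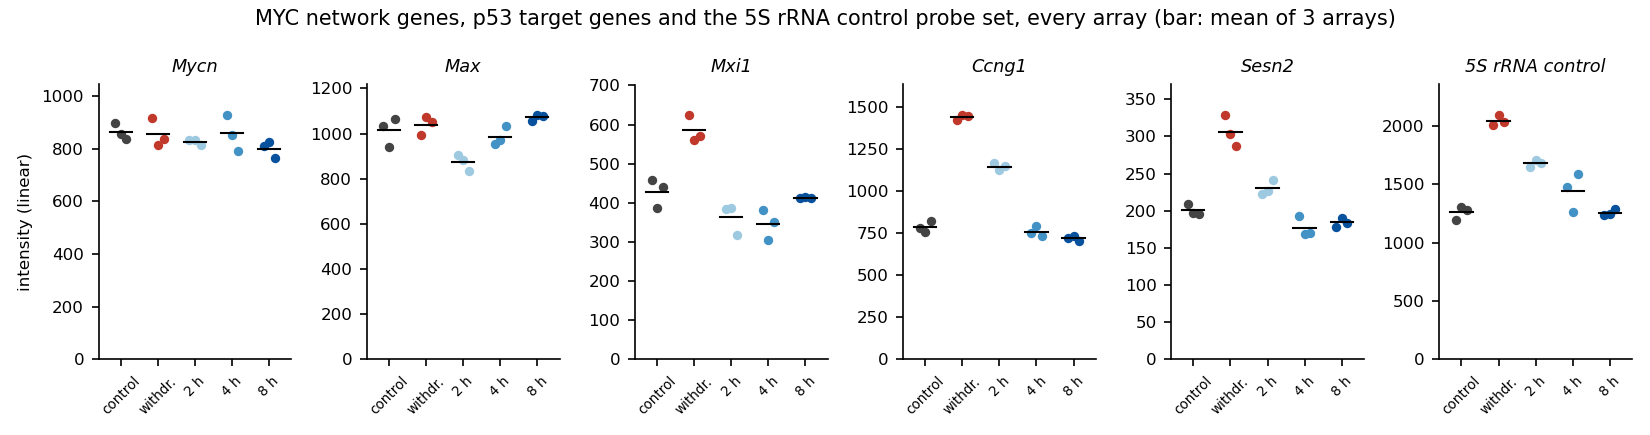
Linear intensity (y axes, from 0) on every array of 3 MYC network genes, 2 p53 targets and the 5S rRNA control probe set, by group in the order of the course, with a bar at the mean of 3 arrays. Mycn is level, while Mxi1, Ccng1, Sesn2 and the 5S rRNA probe set are highest after withdrawal.

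Targets of p53 were followed because disturbed ribosome assembly is known to stabilise p53. Of 11 tested, 6 were higher and 0 lower after withdrawal than in the control (54.5% higher, beside 13.8% of all tested genes). Ccng1, which encodes cyclin G1, had 1423, 1451 and 1447 after withdrawal, against 779, 758 and 822 in the control (1.83-fold higher, log2 0.87 ± 0.04, adjusted p = 2.91e-09). Sesn2, a stress-induced inhibitor of mTOR signalling, had 329, 303 and 288 after withdrawal, against 209, 197 and 196 in the control (1.53-fold, 0.61, adjusted p = 3.35e-05), and the nuclease gene Aen was 1.43-fold higher (0.51, adjusted p = 0.000436). The groups of these genes did not overlap. On return 2 were higher and 7 lower at 2 h than after withdrawal, 1 and 7 at 4 h, and 0 and 6 at 8 h. The shares lower were 63.6%, 63.6% and 54.5%, beside 17.2%, 20.6% and 19.3% of all tested genes. Ccng1 was 1.26-fold lower at 2 h, 1.90-fold lower at 4 h and 2.00-fold lower at 8 h than after withdrawal (adjusted p = 8.4e-05, 7.16e-10 and 8.86e-10). Mdm2, the inhibitor of p53, went the other way at 2 h (0.34, adjusted p = 0.000339), and Zmat3 was lower at 2 h (-0.53, adjusted p = 0.000481) and 4 h (-0.76, adjusted p = 1.08e-05).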

How the data were processed

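Total RNA of 15 cultures was measured on 15 single-colour arrays, 3 per group. The authors deposited linear probe set intensities; GCRMA and Partek 6.3 are named per the submitters' processing notes, with settings not given in the sources used here. Of 31099 probe sets, 20832 had 1 gene symbol, 436 several and 9831 none, and 20764 matched a RefSeq gene identifier; 57 control probe sets were left out. The deposited intensities were log2-transformed and not normalized again. Probe sets at log2 of at least 4 (intensity 16) on 3 or more arrays were kept, 15856 in all, and the brightest probe set stood for a gene. All 15 arrays entered 1 limma fit (version 3.58.1, R 4.3.3; lmFit and eBayes with an intensity trend), with Benjamini-Hochberg adjustment over all tested probe sets in each comparison, a threshold of 0.05 and residual spread shared by the groups. The fit was also run on simulated data with noise drawn independently for each array. Those data lack the within-group component described above, and no conclusion is drawn from them here. Array number limits the precision. Promoters were read with Python 3.11.15. Members and lists were chosen with earlier results of these data known. Values per array are given for the members with the smallest F test p in each role list (3, or 4 in lists of more than 8) and for those against most of their list. Up to 4 other biogenesis genes per direction and comparison, up to 3 genes of other lists and each tested MYC network gene are named. Alternatives covered the filter, normalization, trend, weights, probe set choice, arrays fitted, replicate block and each array left out.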

Additional observations from a re-analysis of the deposited data

Results flagged for a closer look

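A set of 9 members differed between 8 h and 2 h of GDNF return, both set against the same withdrawal arrays, by the limma contrast between them. This is 23.1% of the 39, below the 26.2% of all tested probe sets past the threshold there. Nolc1 (log2 -0.19, adjusted p = 0.00744) and Wdr12 (-0.18, adjusted p = 0.0351) were lower at 8 h than at 2 h. Ebna1bp2 (0.12), Nop56 (0.17), Nop10 (0.17), Mybbp1a (0.22), Utp20 (0.23), Dkc1 (0.27) and Rrs1 (0.30) were higher, with limma adjusted p of 0.000737 for Mybbp1a to 0.0451 for Ebna1bp2. In each of these genes the 3 arrays of 1 group lay apart from the 3 of the other. This adds no support, because the genes were picked by the same contrast. Groups lay apart here for 12 members higher and 6 lower, and for 20.2% and 25.4% of all tested probe sets. Among the 9 genes, the change of Mybbp1a passed under every setting. Mesenchymal markers were also higher at 8 h than at 2 h, 7 of 10 past the threshold. With their mean as a covariate 8 members were higher and 0 lower, and the shares of all probe sets in that fit were not set beside this count. Of the 9 calls 5 were kept in that fit, and those of Nolc1, Wdr12, Nop10 and Ebna1bp2 were lost.

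The 5S rRNA control probe set, which lies outside the table of tested genes, had a mean of 2044 ± 45.8 after withdrawal and 1263 ± 58.4 in the control (SD, n = 3), and 1682 ± 28.4 at 2 h, 1444 ± 165 at 4 h and 1258 ± 29.8 at 8 h. It was listed because a signal outside the tested genes stood above the control arrays. How far the signal of this array control follows the amount of 5S rRNA in the cells was not tested. All 3 withdrawal arrays lay above all control arrays. A permutation test of the between-group F statistic over the 5 groups, with 100000 resamples, gave p = 3e-05. It compares all groups at once and not withdrawal with control alone. Because the probe set was listed for its values on these same arrays, this p is no independent support. By the limma F test 49.6% of all tested probe sets differed over the 5 groups, and the other control probe sets were not tested. Groups of 3 are too small for a test of a single array that lies apart.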

How the results depend on the processing

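Of the 42 member calls, 8 passed under all 14 alternatives and with each array left out (Polr1c after withdrawal, Mybbp1a, Nop10 and Rrs1 at 2 h, Gar1 and Ebna1bp2 at 4 h, Ebna1bp2 at 8 h, and Mybbp1a between 8 h and 2 h). Over all results and settings 6447 values kept their side of the threshold. Called values among them kept their direction, while the direction of uncalled ones was not followed. Another 255 lost the call and 83 gained one. The call of Nop56 at 2 h reversed in direction by its dimmer probe set (0.17). Without the low-value filter the counts of members were 5 at 2 h, 2 at 8 h against withdrawal, 3 against control and 3 against 2 h. Without the intensity trend they were 4, 5 and 3 at 2, 4 and 8 h against withdrawal and 4 for 8 h against 2 h. With only the groups compared in the fit they were 1 after withdrawal, 3 at 4 h, 2 at 8 h against withdrawal and 2 against control. Array weights gave 8 at 8 h against withdrawal. For 8 h against control, median centring, quantile normalization and the mesenchymal covariate each gave 8. Without the 3 lowest arrays on the within-group component the counts were 3 after withdrawal and 5 at 2 h, and without the furthest array of the withdrawal, control and 4 h groups 2 after withdrawal. These omissions and the covariate were chosen after seeing the data. The cause of these changes was not tested.

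With 1 array left out in turn the counts ran from 3 to 8 after withdrawal, 4 to 10 at 2 h, 4 to 11 at 4 h, 1 to 6 at 8 h against withdrawal, 1 to 6 against control, 3 to 9 for 8 h against 2 h, and 9 to 16 for the F test. The counts moved by over 1.5 times without control replicate 2 (3 after withdrawal, 2 at 8 h against control), control replicate 3 (3 at 8 h against control), withdrawal replicate 2 (3, 4, 5 and 1 in the comparisons with withdrawal), withdrawal replicate 3 (5 at 4 h), any 2 h array (4 to 5 at 2 h, 3 to 4 for 8 h against 2 h, and 3 at 8 h against withdrawal without replicate 1 or 3), 4 h replicate 1 (4 at 4 h) and any 8 h array (1 to 3 against withdrawal, 1 against control, 3 to 5 against 2 h, and 9 by the F test without replicate 2). Nothing in the labels pairs arrays by replicate number. Same-numbered deviations had median correlations of 0.0961, -0.000155 and -0.0301 for replicates 1 to 3, with highest values of 0.389, 0.292 and 0.192 and 5, 1 and 2 of 10 pairs over 0.1, so that not every pair passed 0.1. With a replicate block the counts were 7, 8, 9, 4, 6 and 9, and 16 by the F test, and the calls of Utp4 at 4 h and 8 h were not made.

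Over all tested probe sets 8.58% to 13% were called in the 5 comparisons other than 8 h against control (4.68%) without the filter, and with only the groups compared 13.7% after withdrawal and 7.83% at 8 h against control. Median centring turned the split of higher and lower probe sets to 2185 and 1950 at 2 h, 2666 and 2159 at 4 h, 1961 and 1915 at 8 h, and 1028 and 939 for 8 h against control, from 1888 and 2249, 2314 and 2534, 1526 and 2437, and 766 and 1187. Members then gave 3 and 5 at 2 h and 4 and 0 at 8 h.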

Other observations

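Other genes of protein synthesis gave calls too, in shares that are set beside those of all tested genes. Of 73 mitochondrial ribosomal protein genes 9 were higher and 1 lower after withdrawal than in the control, and at 2, 4 and 8 h of return 2, 0 and 0 were higher and 10, 28 and 21 lower than after withdrawal. After withdrawal the shares were 12.3% higher and 1.37% lower, beside 13.8% and 10.8% of all tested genes. On return the shares higher were 2.74%, 0% and 0%, beside 10.9%, 14.7% and 10.1%. The shares lower were 13.7%, 38.4% and 28.8%, beside 17.2%, 20.6% and 19.3% of all tested genes. Of 19 tested genes of RNA polymerase III and its factors 2 were higher and 3 lower after withdrawal, then 4 and 1 at 2 h, 5 and 3 at 4 h, and 2 and 5 at 8 h. In this order the shares higher were 10.5%, 21.1%, 26.3% and 10.5%, beside 13.8%, 10.9%, 14.7% and 10.1% of all tested genes. Those lower were 15.8%, 5.26%, 15.8% and 26.3%, beside 10.8%, 17.2%, 20.6% and 19.3%. Polr3k, a small subunit of that enzyme, was higher after withdrawal (log2 0.19) and lower at 4 h (-0.36) and 8 h (-0.31) than after withdrawal, while Gtf3c4, a subunit of TFIIIC, was higher at 2 h (0.32) and 4 h (0.35).

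Of 33 tested translation initiation factors 7 were higher and 1 lower after withdrawal than in the control, then 3 and 7 at 2 h, 2 and 10 at 4 h, and 2 and 10 at 8 h. After withdrawal the shares were 21.2% higher and 3.03% lower, beside 13.8% and 10.8% of all tested genes. The shares higher on return were 9.09%, 6.06% and 6.06%, beside 10.9%, 14.7% and 10.1%. The shares lower on return were 21.2%, 30.3% and 30.3%, beside 17.2%, 20.6% and 19.3%, and none of these differences in share was tested. Eif2b5 and Eif2b4, subunits of the exchange factor of eIF2, were higher after withdrawal (0.31 and 0.27) and lower at 4 h (-0.38 and -0.26) and 8 h (-0.36 and -0.23) than after withdrawal. Eif4ebp1, which encodes an inhibitor of cap-dependent initiation, was lower at 4 h (-0.29) and 8 h (-0.31) than after withdrawal, and at 8 h than in the control (-0.30).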
